A study of Macaca mulatta with 26 samples.

Results

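On chromosome 2 of the rhesus monkey, 18 different back-splice junctions of skeletal muscle fell in a single stretch of the minus strand, and the most abundant of them was listed with 6 different exon structures. This long junction spans positions 173225549 to 173289402 of rheMac2, counted from 1. The members were all junctions on that strand that overlap the span, together with those assigned to the assembled transcript PREDICTED.20327.3. By position 17 junctions were taken, and 1 was taken through the transcript name alone. They were 18 of the 27419 junctions of all libraries, and they held 786 of 194992 junction reads on 37 combinations of junction and exon structure. The locus was chosen by the number of exon structures and reads of its long junction, and the other members by position or transcript name, so the number of structures and the reads are given as descriptions. All 18 junctions were exonic circRNAs, and no circle of intron sequence was listed in the locus.

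The samples were vastus lateralis muscle, a large muscle of the thigh, from rhesus monkeys (Macaca mulatta) kept on a normal diet, with no treatment and no genotype named. RNA was digested with RNase R, and 1 library was made for each of 24 monkeys: 6 young (0.003 to 6.0 years), 11 middle-aged (11.3 to 16.93 years) and 7 old (25.7 to 40.9 years). An in-depth library was added at each of the ages 0.005 (young) and 40.1 years (old), and the labels do not say whether these came from the animals of the same age among the 24. The young libraries held 1996 to 7918 junction reads, the middle-aged libraries 822 to 11561 and the old libraries 1317 to 8144, against 60704 and 35205 in the young and the old in-depth library, respectively. The muscle origin could not be checked against marker genes, since only circRNAs were counted.

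A circRNA forms when the 3′ end of an exon is spliced back onto the 5′ end of the same or an upstream exon, so that the RNA closes on itself. RNase R digests RNA from its 3′ end, which removes most linear transcripts and spares circles, since these have no free end. A sequencing read that crosses the back-splice junction identifies the circle, but says nothing about exons further inside it. Inner exons are filled in from a linear transcript model with the same splice sites. Exons that form circles are often flanked by long introns, and a single gene can yield several circles. The host gene of this locus is not named here, because the circles are assigned to transcripts such as ENSMMUT00000014005 and PREDICTED.20327.3, and no table used here pairs these with a gene.

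The exons of the locus are given from 5′ to 3′ along the transcript, which runs from high to low coordinates, and each is called by its length. The long circle opens with the 80-nt exon (173289323 to 173289402), followed by the 55-nt exon (173289146 to 173289200). The 48-nt exon (173286310 to 173286357) comes next in some libraries. Then follow the 117-nt exon (173283964 to 173284080), the 65-nt exon (173279180 to 173279244) and the 82-nt exon (173278803 to 173278884). The 200-nt exon (173247545 to 173247744), the 52-nt exon (173233523 to 173233574) and the 90-nt exon (173225549 to 173225638) close the circle. Upstream of the long circle, 5 more exons of 173, 127, 91, 107 and 116 nt entered a few rare circles.

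Introns of very different length separate these exons. The intron between the 82-nt and the 200-nt exon measured 31058 nt, and the next, up to the 52-nt exon, 13970 nt. In contrast, 122 nt separate the 80-nt from the 55-nt exon and 295 nt the 65-nt from the 82-nt exon. Upstream of the circle lies an intron of 5515 nt, close to the median of 5201.5 nt over the 24360 exonic junctions of all libraries, of which 51.8% had a shorter upstream intron. The intron downstream of the 90-nt exon measured 50783 nt, against a median of 4543 nt, and 96.5% of the junctions had a shorter one.

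The long circle was listed in 21 of the 26 libraries with 391 reads, of which 229 came from 19 of the 24 libraries, 65 from the young in-depth library and 97 from the old in-depth library. Per 10000 junction reads of a library it averaged 24.5 ± 21.8 (SD, n = 24), which placed it 39th among 19070 junctions of the 24 libraries. Its leading structure joined 8 exons, 80-55-117-65-82-200-52-90, into a circle of 741 nt. This structure was listed in 14 libraries with 190 reads, namely in 3 of the young, 7 of the middle-aged and 3 of the old animals and in the young in-depth library. In the 13 libraries of the main set it had 2 to 32 reads.

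The other 5 structures each came from 1 or 2 libraries. A circle of 676 nt without the 65-nt exon was listed with 12 reads in the young monkey aged 6 years and with 97 reads in the old in-depth library. A circle of 589 nt, with the 48-nt exon and without the 200-nt exon, was listed with 28 reads in the middle-aged monkey aged 13 years and with 33 reads in the one aged 16.93 years. A circle of 541 nt, without both the 48-nt and the 200-nt exon, had 18 reads in the young monkey aged 2.8 years. A circle of 693 nt, in which the 200-nt exon was shortened to 152 nt by 48 nt at its 5′ end (173247545 to 173247696 remained), had 7 reads in the young monkey aged 0.005 years. A circle of 789 nt with the 48-nt and all other exons had 6 reads in the old monkey aged 32 years. The listed structures thus differed at 3 places, the 48-nt, the 65-nt and the 200-nt exon. The 80-nt, 55-nt, 117-nt, 82-nt, 52-nt and 90-nt exons were listed for the long circle in all 21 libraries.

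**Figure D1:**
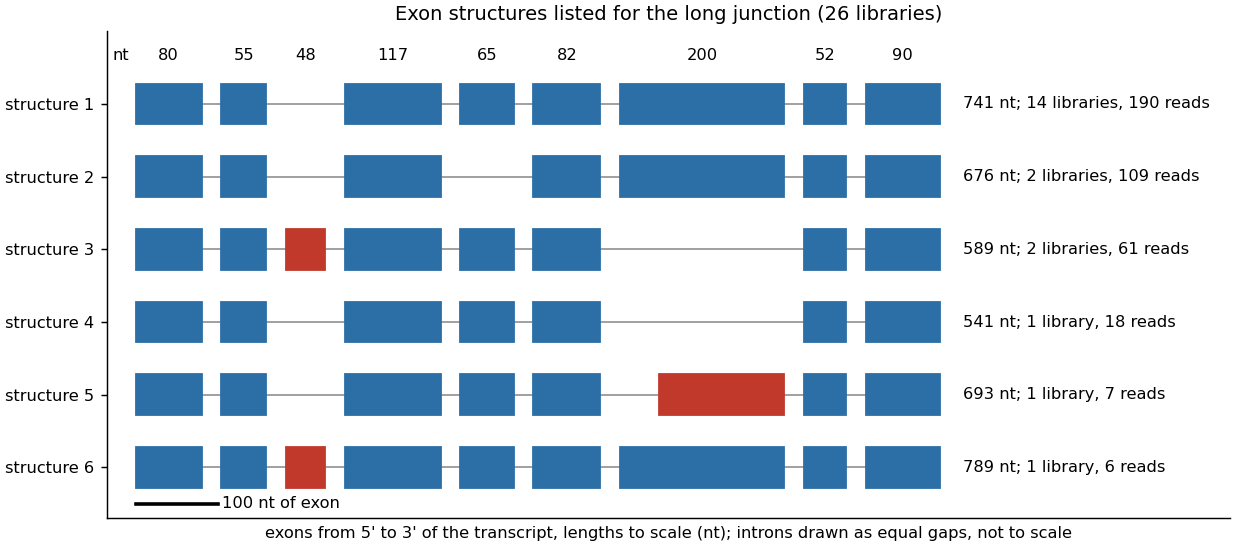
Exons of the 6 structures listed for the long junction, from 5′ to 3′ of the transcript with exon lengths to scale in nt and introns drawn as equal gaps, and beside each structure its spliced length, libraries and reads over all 26 libraries. Red marks the 48-nt exon and the 152-nt form of the 200-nt exon. The 8-exon circle of 741 nt stands in 14 of 21 libraries, and the structures differ at 3 exons only.

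Counted by exon, the long circle was listed without the 65-nt exon in 2 of 21 libraries, which held 109 of its 391 reads (27.9%). It was listed without the full 200-nt exon in 4 libraries with 86 reads (21.99%), 1 of them with the 152-nt form. The 48-nt exon was listed in 3 libraries with 67 reads. The reads cross only the back-splice junction, so these shares follow the transcript assigned in each library. They do not measure how often an exon was skipped. The 48-nt exon has a length divisible by 3, and so has the piece removed from the 200-nt exon, so that the circles of 741, 693 and 789 nt are all multiples of 3 in length. Circles without the 65-nt or the whole 200-nt exon, 676, 589 and 541 nt long, leave a remainder of 1. Whether any of these circles is translated was not measured.

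No library listed more than 1 structure for a junction of the locus, so that no library gives a ratio of the structures. Libraries of the same age did not always list the same structure. At 0.005 years the library of the main set had the 693-nt circle and the in-depth library the 741-nt circle. At 40.1 years the library of the main set had the 741-nt circle with 12 reads, while the in-depth library had the 676-nt circle with 97 reads. The transcript assigned to the long junction changed with the structure. PREDICTED.20327.3 was given in 9 libraries, ENSMMUT00000014005 in 3 and PREDICTED.15398.1 in 2, and 7 further transcripts in 1 each. Of the 22 libraries with more than 1 junction in the locus, 15 gave all of them the same transcript and 7 gave 2 transcripts. Since inner exons are filled in from the assigned transcript, a listed structure follows that transcript. Whether the circles themselves hold these inner exons was not tested.

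Other circles of the same library show whether an exon left out of the long circle was spliced elsewhere. In all 4 libraries whose long circle lacked the full 200-nt exon, another circle of the locus contained it, with 30 reads in these libraries together. The circle of the 200-nt, 52-nt and 90-nt exons, whose back-splice site is the 5′ end of the full 200-nt exon, had 4 reads at 0.005 years, 3 at 2.8 years, 8 at 13 years and 13 at 16.93 years. In the 13-year library, 2 other circles with 10 reads spanned and contained the 200-nt exon and 4 other circles with 13 reads spanned and lacked it. In the 16.93-year library, 1 other circle with 13 reads contained it and 4 with 27 reads lacked it. Of the 2 libraries whose long circle lacked the 65-nt exon, the old in-depth library had a circle that began with this exon, with 18 reads. The young library aged 6 years had none, and its other 2 circles across that exon lacked it as well. None of the 18 libraries without the 48-nt exon in the long circle listed it in another circle. Some of these libraries had no other circle across it, and no junction of the locus begins or ends at it. Whether it was absent there can therefore not be judged. Only junctions that begin or end at an exon show that exon directly, so the 200-nt exon and, in the in-depth library, the 65-nt exon were seen at the junction itself in libraries whose long circle was listed without them.

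A number of structures as high as 6 was uncommon in the series. Of the 27419 junctions, 26029 had a single structure, 7 had 5 structures, 7 had 6, the long junction among them, and 9 had more, with 10 as the largest number. Junctions seen in more libraries have more chances to be given another structure. Among the 24 other junctions listed in exactly 21 libraries, 16 had a single structure, the median was 1 and none had more than 2. These were matched by number of libraries only and not by number of exons. A circle of few exons has few inner exons that could differ.

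Of the other junctions, 11 lie within the long one and held 376 reads, and 6 reach upstream of its 80-nt exon or lie there, with 19 reads together. The most abundant of these was the 3-exon circle 200-52-90 (173225549 to 173247744, 342 nt), which shares the 3′ end of the 90-nt exon with the long circle. It had 162 reads in 23 of 26 libraries, 95 of them in 21 of the 24 libraries, 34 in the young and 33 in the old in-depth library. All 23 libraries listed it with the same structure. At 10.7 ± 8.47 reads per 10000 (SD, n = 24) it was 108th of 19070 junctions, and it was listed in more libraries than the long circle with fewer reads.

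Another 4 junctions had at least 10 reads. A circle from the 117-nt to the 90-nt exon (173225549 to 173284080) had 83 reads in 13 libraries and 4 structures. The leading one, 117-65-82-200-52-90, had 40 reads in 9 libraries. The one without the 65-nt exon had 29 reads in the old in-depth library, the one without the 200-nt exon 12 reads in 2 libraries and the one with the 152-nt form 2 reads in 1 library. A circle from the 80-nt to the 82-nt exon (173278803 to 173289402), which ends before the long intron of 31058 nt, had 54 reads in 13 libraries. Its 3 structures had 22 reads (5 exons, 399 nt), 20 reads (without the 65-nt exon) and 12 reads (with the 48-nt exon).

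A circle from the 65-nt to the 90-nt exon (173225549 to 173279244) had 38 reads in 7 libraries, 30 with and 8 without the 200-nt exon. A circle from the 80-nt to the 52-nt exon (173233523 to 173289402) had 22 reads in 4 libraries of the main set and none in the in-depth libraries. Of these, 18 reads in 2 middle-aged libraries had the 48-nt and lacked the 200-nt exon. The smaller circles with more than 1 structure varied at the same 3 exons as the long one. Every smaller circle listed with the 48-nt exon had the transcript of the long circle in the same library. So had every one that spanned but lacked the 65-nt or the full 200-nt exon. Since inner exons are filled in from the assigned transcript, this match is no separate observation of those exons. The transcript assigned to a smaller circle was not always that of the long circle in the same library, and 14 transcripts were named in the locus. Smaller circles with another transcript than the long one contained the 65-nt and the full 200-nt exon wherever they spanned them, and none contained the 48-nt exon. Most of these circles begin or end at the 65-nt or the 200-nt exon and so contain that exon in any case.

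The remaining 12 junctions had 1 to 6 reads and 36 reads in all. Of the 18 junctions, 5 were listed in 1 library and 2 in the in-depth libraries only. The junction taken by transcript name alone (173294918 to 173306609) joins the 5 upstream exons. It had 2 reads in 2 libraries under PREDICTED.20327.3 and 9 further reads in 2 libraries under other transcripts, which are not counted among the 786.

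**Figure D2:**
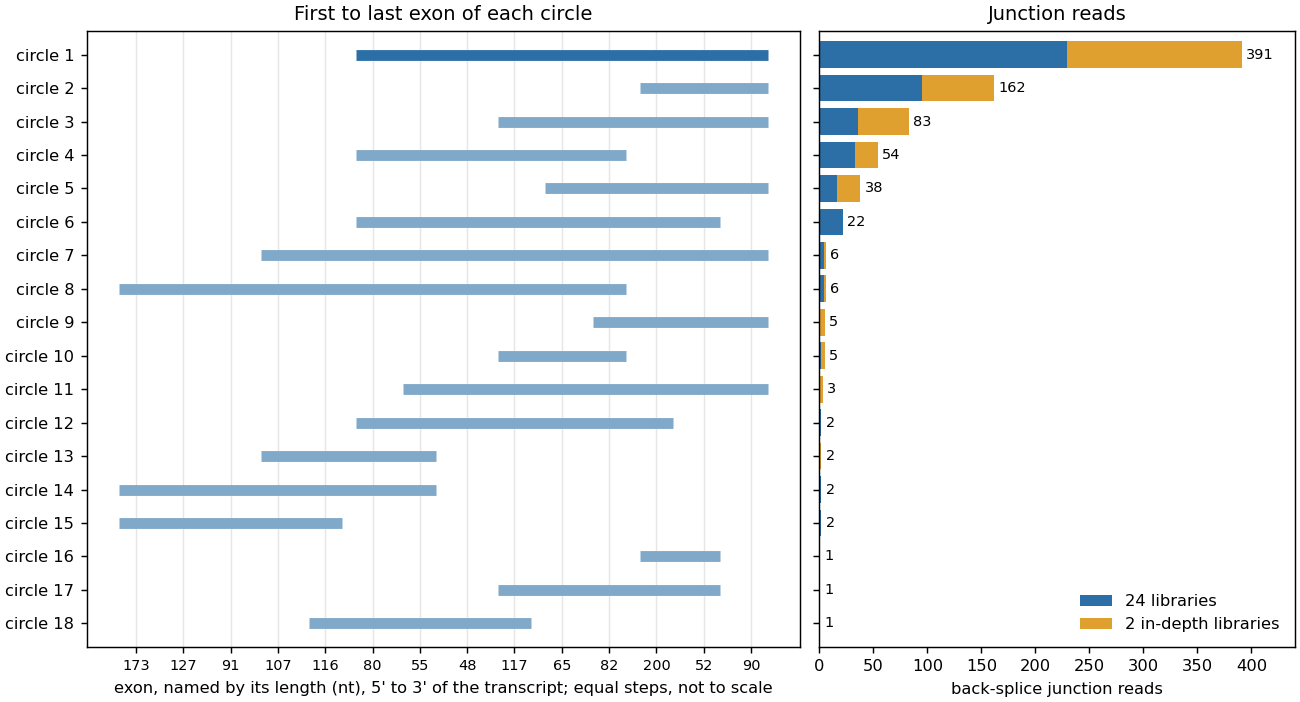
All 18 circles of the locus, from the first to the last exon of each, with exons in equal steps from 5′ to 3′ of the transcript (left), and their back-splice junction reads in the 24 libraries (blue) and the 2 in-depth libraries (orange) (right). The long circle (circle 1, 391 reads) and the 3-exon circle (circle 2, 162 reads) lead, and 7 circles close at the 90-nt exon.

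Most back-splice reads of the locus came from circles that ended at the same exon, the 90-nt exon. The 3′ end of the 90-nt exon closed 7 of the 18 junctions with 688 of 786 reads (87.5%) in 24 libraries. The 3′ end of the 82-nt exon closed 3 junctions with 65 reads (8.27%) and that of the 52-nt exon 3 junctions with 24 reads (3.05%). On the other side the choice was wider. The 5′ end of the 80-nt exon was used by 4 junctions with 469 reads (59.7%), that of the 200-nt exon by 2 with 163 reads (20.7%) and that of the 117-nt exon by 3 with 89 reads (11.3%). By reads the circles thus varied more in where they began than in where they ended. The 90-nt exon lies before the intron of 50783 nt, and the 82-nt exon before the one of 31058 nt. A link between intron length and the ends used was not tested.

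Over the 24 libraries the long circle made up 50.8% of the 451 locus reads (95% Wilson interval 46.2% to 55.4%), and the 3-exon circle 21.1% (17.6% to 25.1%). In the in-depth libraries the long circle took 52.0% (43.3% to 60.6%) of 125 reads at 0.005 years and 46.2% (39.6% to 52.9%) of 210 reads at 40.1 years. The 3-exon circle took 27.2% (20.2% to 35.6%) and 15.7% (11.4% to 21.2%) in the same order. The intervals of these libraries overlap from 43.3% to 52.9% for the long circle, but only from 20.2% to 21.2% for the 3-exon circle. Overlap does not show that the shares are equal, and the difference was not tested. Each in-depth library is a single sample, so these values compare the libraries and not the ages, and the intervals cover counting error only.

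**Figure D3:**
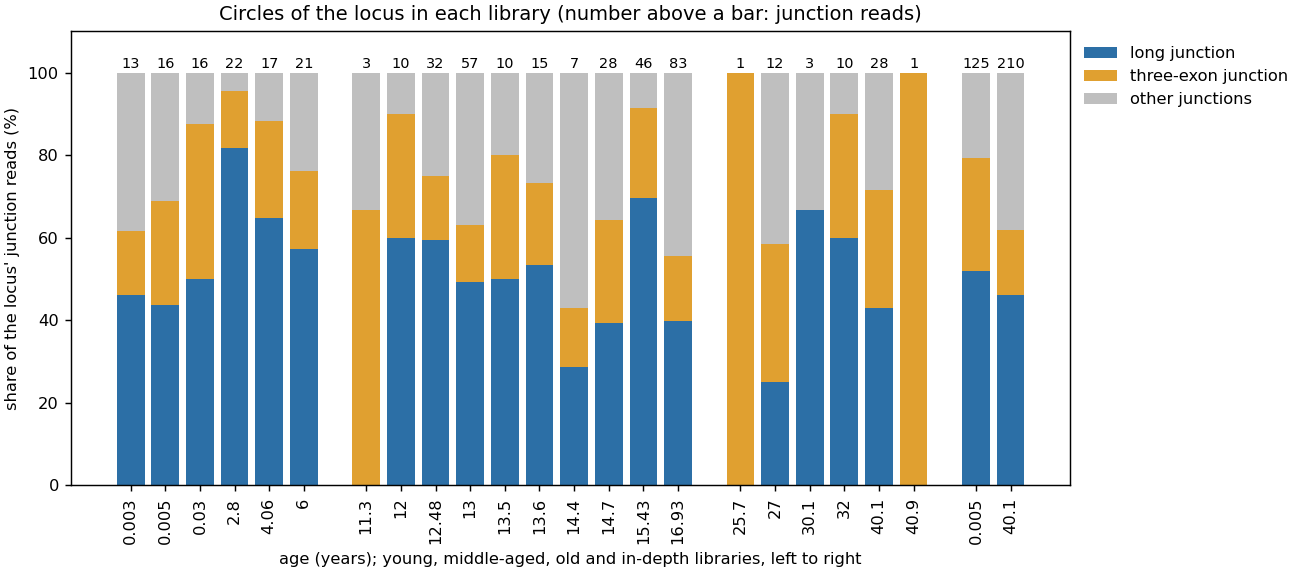
Share of locus junction reads in percent (vertical axis) taken by the long, the 3-exon and the other junctions in each library with a locus read, with age in years along the horizontal axis and the number of locus reads above each bar. The long circle is the largest part in most libraries, at 43.8% to 81.8% in young monkeys, and the bars of 100% for the 3-exon circle in 2 old monkeys each rest on 1 read.

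Whether the circles of the locus change with age was asked by comparing the monkeys of the 3 age groups. Reads of all 18 junctions were summed and given per 10000 junction reads of the library. A circle that is not listed in a library was counted as 0 there. In the young monkeys the locus reads numbered 13 at 0.003 years, 16 at 0.005, 16 at 0.03, 22 at 2.8, 17 at 4.06 and 21 at 6 years. Per 10000 they ran from 20.2 to 90.1 with a median of 39.8 and a mean of 50.2 ± 30.2 (SD, n = 6). The middle-aged libraries ran from 0 to 110 with a median of 58.9 and a mean of 62.0 ± 34.1 (SD, n = 11). The 2 highest were the monkeys aged 12 years, with 10 reads, and 15.43 years, with 46 reads. The library at 0, a monkey aged 14.4 years, had the fewest junction reads of all, 822, and 3 reads there would already be 0.365%.

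The old libraries ran from 0 to 78.9 with a median of 19.8 and a mean of 21.3 ± 27.6 (SD, n = 7). Their locus reads numbered 1 at 25.7 years, 12 at 27, 0 at 28.7, 3 at 30.1, 10 at 32, 28 at 40.1 and 1 at 40.9 years. In the libraries aged 25.7 and 40.9 years the single read came from 8144 and 4924 junction reads, both above the median of the young libraries, 4568. The library without a locus read, at 28.7 years, held 1845 junction reads, in which 3 reads are 0.163%. The groups overlapped. Of the 7 old monkeys, 6 lay below the median of the young and 6 below the median of the middle-aged, 4 lay below the lowest young monkey, and the one aged 40.1 years lay at 78.9, above 4 of the 6 young.

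The mean of the old minus that of the middle-aged was -40.7 reads per 10000 (exact permutation test, two-sided, p = 0.0182, adjusted p = 0.182 after Benjamini-Hochberg adjustment over the 10 tests made here). Old minus young was -28.9 (exact permutation test, p = 0.100, adjusted p = 0.200), and middle-aged minus young 11.9 (p = 0.484, adjusted p = 0.538). No difference passed the threshold of 0.05 after adjustment. For the first comparison this depended on the old monkey aged 40.1 years. Without its library, old minus middle-aged was -50.3 (exact permutation test, p = 0.00242, adjusted p = 0.0242), and old minus young -38.5 (p = 0.00866, adjusted p = 0.0866). In each of these adjustments only the p of that comparison was replaced, and the other tests still included this monkey. The 10 tests were not adjusted together without its library, so these adjusted values hold for this procedure only. Whether more comparisons would pass in a joint adjustment was not examined. With the library included, no change in the level of the locus was called at this number of animals.

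**Figure D4:**
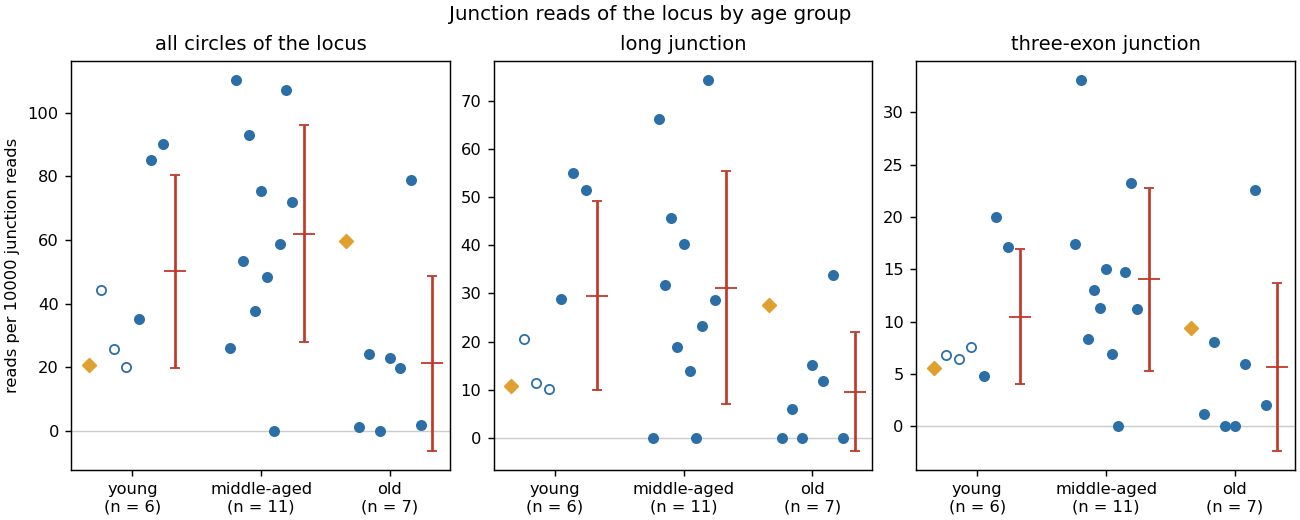
Junction reads per 10000 junction reads of the library (vertical axes) for all circles of the locus, the long junction and the 3-exon junction, with 1 point per library, open circles for the 3 young monkeys under 1 year, orange diamonds for the in-depth libraries and red bars for mean and SD of each age group without the in-depth libraries. Old monkeys sit low, with 6 of 7 below the young median of the locus, except the one aged 40.1 years at 78.9.

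For the long circle alone the order of the groups was the same. It had 6, 7, 8, 18, 11 and 12 reads in the young monkeys in order of age, which is 10.1 to 55.1 per 10000 with a mean of 29.6 ± 19.6 (SD, n = 6). In the middle-aged monkeys it ran from 0 to 74.5 with a median of 28.5 and a mean of 31.2 ± 24.2 (SD, n = 11), and in the old from 0 to 33.8 with a median of 6.06 and a mean of 9.56 ± 12.3 (SD, n = 7). It was not listed in 3 of 7 old, 2 of 11 middle-aged and 0 of 6 young libraries. Old minus middle-aged was -21.6 (exact permutation test, p = 0.0369, adjusted p = 0.183) and old minus young -20.0 (p = 0.0548, adjusted p = 0.183). Middle-aged minus young, at 1.59 (p = 0.899, adjusted p = 0.899), was far smaller than the spread between animals and turned negative in several of the alternatives.

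The 3-exon circle averaged 10.5 ± 6.42 reads per 10000 among the 6 young animals. Its mean was 14.04 ± 8.71 among the 11 middle-aged and 5.69 ± 8.04 among the 7 old animals, with SD as the error in each case. The long and the 3-exon circle varied together across the 24 libraries (Pearson's r = 0.79, Spearman's rho = 0.73, and r = 0.69 without the 2 libraries farthest from the median of the long circle). Both share their library, its depth and the total they are divided by, so these values are a description.

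In a fit of counts across the 258 junctions that reached 2 reads in 12 or more libraries, 2 of the 18 members entered, the long and the 3-exon junction. With edgeR's quasi-likelihood test and Benjamini-Hochberg adjustment, 0 of the 2 were called in old against young, where 0% of all junctions were called, in middle-aged against young (0%) or in old against middle-aged (0.388%, 1 of 258). At an unadjusted p under 0.05 there were 14, 19 and 18 of 258 junctions in the same order with edgeR. DESeq2 called 0, 1 and 1 junctions and had 16, 21 and 17 at an unadjusted p under 0.05. The long junction had a log2 fold change of -1.82 (SE 0.65) in old against middle-aged, the fourth smallest p of the 258 (edgeR, p = 0.00682, adjusted p = 0.440). In old against young it was -1.61 (SE 0.71, edgeR adjusted p = 0.794) and in middle-aged against young 0.21 (SE 0.60, edgeR adjusted p = 0.983). The 3-exon junction had -1.15 (SE 0.57, edgeR adjusted p = 0.686), -0.61 (SE 0.65, edgeR adjusted p = 0.944) and 0.55 (SE 0.57, edgeR adjusted p = 0.916), respectively.

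The mix of circles was compared in the libraries with a locus read. Among 6 young animals the long circle took 57.3 ± 14.3% of locus reads (mean and SD). Its share was 44.9 ± 19.7% among 10 middle-aged and 32.4 ± 28.98% among 6 old animals. Old minus young was -24.8 percentage points (exact permutation test, p = 0.0974, adjusted p = 0.200), middle-aged minus young -12.4 (p = 0.199, adjusted p = 0.331) and old minus middle-aged -12.5 (p = 0.321, adjusted p = 0.458). Of the 6 old libraries, 2 had a share of 0% from a single locus read. In libraries with at least 10 locus reads, old minus young was -14.6 (3 old monkeys) and middle-aged minus young -4.71. With reads pooled by group, the share was 59.0% (95% Wilson interval 49.5% to 68.0%) for the young, 49.5% (43.8% to 55.2%) for the middle-aged and 41.8% (29.7% to 54.97%) for the old group. These intervals cover counting error only and leave out the spread between monkeys, and 2 libraries gave 57 and 83 of the 291 middle-aged reads.

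The choice of structure was compared over the 19 libraries of the main set with the long circle. The 741-nt structure was listed in 3 of 6 young, 7 of 9 middle-aged and 3 of 4 old monkeys, and these shares did not differ by an exact Freeman-Halton test past the threshold (p = 0.472, adjusted p = 0.538). With each structure counted separately, p was 0.198 in the same exact test. The 3 young libraries with another structure had 3 different ones. The middle-aged libraries aged 13 and 16.93 years shared theirs, and they were 2 of the 3 libraries with the most locus reads among the 24, 57 and 83, together with 46 at 15.43 years.

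The young group covers newborn and juvenile animals. The 3 monkeys under 1 year had 20.2 to 44.3 locus reads per 10000 and the 3 aged 2.8 to 6 years 35.3 to 90.1. For the long circle the ranges were 10.1 to 20.5 and 28.9 to 55.1, which do not overlap. The libraries of the younger animals also held 2933 to 7918 junction reads against 1996 to 6227, and the split was noticed in the data and not tested. Without the 3 youngest, old minus young was -48.9 for the locus and -35.6 for the long circle (exact permutation test, p = 0.0333 and adjusted p = 0.123 for each). The in-depth library aged 0.005 years, at 20.6 locus reads per 10000, lay near the library of the same age in the main set, at 25.8, and the in-depth library aged 40.1 years, at 59.7, near its counterpart at 78.9.

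Among 256 other junctions in the fit, the 3 whose reads per 10000 followed the locus most closely over the 24 libraries were an intronic circle on chromosome 16 (10271888 to 10272943, minus strand, rho = 0.80, r = 0.72), an exonic circle on chromosome 20 (45697009 to 45715127, plus strand, rho = 0.69, r = 0.63) and an exonic circle on chromosome 2 (20044064 to 20046839, minus strand, rho = 0.67, r = 0.46). The median rho of the 256 was 0.0455. These 3 were picked as the highest, share the libraries and their totals with the locus, and are a description.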

How the data were processed

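The authors trimmed paired reads of RNase R-treated RNA with cutadapt, aligned them to rheMac2 with TopHat2 2.0.14 and Bowtie2 2.2.4, assembled transcripts with Cufflinks 2.2.1 and called circRNAs with CIRCexplorer against their assembled and Ensembl transcripts. The deposited values are whole-number counts of junction reads per circle and library, not normalized. Inner exons come from the assigned transcript. Here reads were summed over structures per junction and scaled to 10000 junction reads of the library. The authors' normalization factors were not used.

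Groups follow the labelled ages. The locus, the members and the lists were chosen with earlier results of these data known. Named are all structures of the long junction, other junctions with at least 10 reads, and the 3 junctions with the highest rho. The p-values measure the spread between monkeys. Exact permutation tests (two-sided, from the smaller tail) and the Freeman-Halton test were made with numpy 2.4.6, pandas 2.3.3 and scipy 1.17.1 in Python 3.11.15, and the fit with edgeR 4.0.16 in R 4.3.3 (total junction reads as library size, robust, the 3 groups in one fit). DESeq2 1.42.0 was an alternative and matplotlib 3.10.9 drew the figures. On simulated counts with a dispersion of 0.371, edgeR recovered 3, 31 and 44 of 51 changed junctions of 258 at log2 fold changes of 1, 2 and 3 for old against young. False calls among the unchanged junctions numbered 0, 3 and 2, respectively. A count of 3 reads was a share of 0.0259% to 0.365% in the 24 libraries and 0.00494% and 0.00852% in the young and the old in-depth library. Single reads were also listed and counted, so smaller shares occurred. No sequence is printed, since no genome of this build was used here.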

Additional observations from a re-analysis of the deposited data

Results flagged for a closer look

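Of 14 sets of values, each 1 measure in 1 age group, 3 had a sample far from the others by Dixon's test. For normally distributed values this test picks about 1 in 20 sets by chance, and these sets hold zeros and low counts. Sets with all 11 middle-aged libraries were not tested. The old monkey aged 40.1 years had 78.9 locus reads per 10000, while the next old monkey had 24.2, a gap of 0.693 of the range of the 7 old libraries. The same monkey had 22.5 reads per 10000 of the 3-exon circle, and the next 8.08, a gap of 0.642 of the range. Reads of the 3-exon circle are part of the locus reads, so these are not separate observations. Its library held 3550 junction reads and 28 locus reads. The in-depth library of the same age had 59.7 locus reads per 10000 from 35205 junction reads. In the middle-aged monkey aged 11.3 years the 3-exon circle took 66.7% of the locus reads, and the next library of the group lay at 30%. That share is 2 of 3 reads.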

How the results depend on the processing

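Apart from the settings that leave out 1 library each, 38 of 47 values of the age comparisons kept their direction and their side of the threshold (counts, to within 1.5 times). For the exact tests, each alternative replaced only its own p in the adjustment and kept the other tests as in the main analysis. Raw reads in place of scaled ones and leaving out the 6 libraries with the fewest junction reads changed no direction and no call. Middle-aged minus young turned negative without the 3 monkeys under 1 year, at -8.19 for the locus and -14.0 for the long circle, whose log2 fold change became -0.44. In the same setting its log2 fold change in old against young was -2.27, and middle-aged minus young in its share -23.0 percentage points (no call). It was -2.34 for the long circle without the 4 middle-aged libraries whose file names carry an F, a setting chosen after seeing the data. The count of junctions called in old against middle-aged was 0 with TMM, under which the median log2 fold change moved from -0.11 to 0.09 and that of the long junction to -1.69. In middle-aged against young it was 1 with DESeq2 and 2 with only these groups in the fit. With all 1552 junctions of at least 10 reads in total, 17 were called in old against young, 24 in middle-aged against young and 25 in old against middle-aged, but 0 of the 6 members tested. Of these members, the circle from the 65-nt to the 90-nt exon had 16 reads in 5 of the 24 libraries, none of them young. Its log2 fold change was 3.37 in middle-aged against young (edgeR, p = 0.00235, adjusted p = 0.0820). In old against young it was 2.11 (edgeR adjusted p = 0.441), while the other members were negative there. Over the alternatives that sum its structures, the adjusted p of the long junction ran from 0.104 to 0.660 in old against middle-aged. In old against young it ran from 0.250 to 0.956. With each exon structure as its own feature, the 741-nt structure had a log2 fold change of -0.79 in old against young (edgeR adjusted p = 0.984). It was 0.96 in middle-aged against young (edgeR adjusted p = 0.956) and -1.75 in old against middle-aged (edgeR adjusted p = 0.829). Without the 6 libraries with the fewest junction reads, middle-aged minus young was 20.9 for the locus and 7.96 for the long circle, and without the 4 libraries named with an F 3.73 for the locus.

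When each library was left out in turn, middle-aged minus young ranged from 5.86 to 19.8 for the locus and from -2.74 to 6.70 for the long circle, negative without the middle-aged monkeys aged 15.43 or 12 years or any of the young under 1 year. Old minus middle-aged ranged from -50.3 (without the monkey aged 40.1 years) to -35.9 for the locus and from -25.6 to -17.3 for the long circle. Old minus young ranged from -38.5 to -20.9 for the locus and from -24.0 to -14.9 for the long circle. The -50.3 was the only called value, with the p-values of the other tests kept from all 24 libraries. The share of the long circle ranged from -31.7 to -18.4, -15.1 to -7.37 and -19.3 to -6.00 percentage points for old minus young, middle-aged minus young and old minus middle-aged. The cause of these changes was not tested. No paired analysis was possible because each monkey gave 1 library and replicate numbers were given in accession order. With 0 to 83 locus reads in a library, small differences were not detectable at this depth.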
